A study of Mus musculus with 10 samples.

Results

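The genes described are the α subunits of heterotrimeric G proteins, a list of 10 genes out of the 24454 genes in the count files: *Gnai1*, *Gnai2*, *Gnai3*, *Gnao1* and *Gnaz* of the Gi family, *Gnas* and *Gnal* of the Gs family, *Gnaq* and *Gna11* of the Gq family, and *Gna12* of the G12 family. They were matched by gene symbol, and all 10 were among the 13568 genes tested. RNA-Seq of brown adipose tissue (BAT) was done in 5 control and 5 Stat5Adipoq male mice on a C57BL/6N background, 2 months old and fed ad libitum, with 1 library per mouse. The sample titles call the state of both genotypes basal. Stat5Adipoq mice lack *Stat5a* and *Stat5b* where Cre is driven by the *Adipoq* promoter, that is in adipocytes, so the vessel, nerve and immune cells of the tissue keep both genes. The controls were littermates with floxed *Stat5* and no Cre, although the labels call them wild type. Counts on genes were 10315218, 10936218, 8488129, 19514904 and 10710575 in control replicates 1 to 5 and 11671635, 15686868, 10633496, 9401827 and 13010152 in Stat5Adipoq replicates 1 to 5. In such whole-tissue libraries, fewer cells of a type and less RNA per cell cannot be told apart.

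A G protein carries the signal of a hormone receptor to the inside of the cell: the activated receptor loads the α subunit with GTP, which then acts on an enzyme until its own GTPase activity, sped up by RGS proteins, ends the signal. In brown adipocytes the β-adrenergic receptors act through Gs, which stimulates adenylyl cyclase and thereby cAMP, lipolysis and heat production. Gi proteins, which receive the signals of adenosine, prostaglandin E2, lactate and α2-adrenergic receptors, hold adenylyl cyclase back, while Gq acts through phospholipase C and G12 acts on the cytoskeleton.

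The targeted genes followed the genotype labels. *Stat5a* stood at 109.8, 130.4, 92.6, 86.9 and 107.0 CPM (counts scaled to a common library size after TMM normalization) in control replicates 1 to 5, and at 20.7, 15.8, 16.2, 16.6 and 16.1 CPM in Stat5Adipoq replicates 1 to 5. *Stat5b* averaged 83.8 ± 5.51 CPM (SD, n = 5) in controls and 21.8 ± 0.723 CPM (n = 5) in Stat5Adipoq mice. No Stat5Adipoq library reached the level of any control library for either gene. The tissue carried its markers in every library: *Ucp1*, the uncoupling protein of brown fat, ranged from 5402 to 13831 CPM, and all 9 brown adipocyte markers examined passed the count filter, none of them called different between genotypes by edgeR's quasi-likelihood test, DESeq2 or limma-voom, with 2 at an unadjusted p below 0.05. The share of all tested genes below this unadjusted cut is not given, so counts at it, here and below, are a description only.

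Among the α subunits, *Gnai1* was lower and *Gnao1* and *Gna12* were higher in Stat5Adipoq BAT, so that 3 of 10 members were called, which here means an adjusted p below 0.05 in edgeR's quasi-likelihood F test, adjusted by Benjamini-Hochberg over all genes tested. Over all 13568 tested genes 2.71% were called, 1.31% as lower and 1.4% as higher in Stat5Adipoq mice. The CPM values of the genotypes did not overlap for 4 members, namely these 3 and *Gnas*, as they did not for 4.39% of all tested genes. DESeq2 called the same 4 members and 4.86% of all tested genes. The median log2 fold change was 0.01 over the members and -0.0028 over all tested genes. The number of genes called by edgeR, 368 with all libraries, was 224, 213 and 221 without control replicate 1, 2 or 4, and 185, 193 and 191 without Stat5Adipoq replicate 3, 4 or 5.

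Per kilobase of annotated exon, *Gnas* was the most abundant of the 10 member mRNAs in control BAT at 379 ± 32.4 CPM per kb (SD, n = 5), followed by *Gnai2* at 34.1 ± 1.64 and *Gna11* at 31.6 ± 1.75 CPM per kb. Places are among the 10 members only, and *Gna13*, which is not one of them, was not ranked. *Gna12* at 20.0 ± 0.804, *Gnai1* at 17.7 ± 1.56, *Gnai3* at 15.9 ± 1.09, *Gnaq* at 11.4 ± 0.257 and *Gnao1* at 8.2 ± 0.981 CPM per kb formed the middle of the order. *Gnal* at 0.452 ± 0.125 and *Gnaz* at 0.138 ± 0.0384 CPM per kb were at the bottom. The libraries of neighbours in this order overlapped for *Gnai2* and *Gna11*, for *Gna12* and *Gnai1*, and for *Gnai1* and *Gnai3*. In Stat5Adipoq BAT *Gnai1* stood at 7.6 ± 1.21 CPM per kb and moved from place 5 to place 8, below *Gnai3* at 15.4 ± 0.996, *Gnaq* at 11.7 ± 0.683 and *Gnao1* at 11.3 ± 0.486 CPM per kb. Of the neighbours in the Stat5Adipoq order, libraries overlapped only for *Gnaq* and *Gnao1*. These levels depend on the length used: per kilobase of longest transcript, *Gnas* stood at 1075 ± 91.7 and *Gnai2* at 58.2 ± 2.8 CPM per kb in controls, still in places 1 and 2. The place of *Gnao1* depended on it too, since its annotated exons sum to 11.053 kb and its longest transcript to 5.526 kb. Per kilobase of longest transcript it took place 6 in controls, at 16.4 ± 1.96 CPM per kb, and place 5 in Stat5Adipoq mice, at 22.6 ± 0.972 CPM per kb, but its libraries overlapped those of *Gnai1* and *Gnai3* in controls and those of *Gna12* in Stat5Adipoq mice.

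In the Gi family, *Gnai1* encodes Gαi1, one of the closely related subunits that inhibit adenylyl cyclase. *Gnai1* mRNA was measured at 54.4, 53.3, 63.6, 55.5 and 50.6 CPM in control replicates 1 to 5, and at 29.7, 24.2, 23.9, 19.4 and 22.0 CPM in Stat5Adipoq replicates 1 to 5. The highest Stat5Adipoq library, replicate 1, lay far below the lowest control library, replicate 5, and the groups did not overlap. The mean fell from 55.5 ± 4.9 to 23.8 ± 3.79 CPM (SD, n = 5 each), a log2 fold change of -1.21 with a standard error of 0.1 and 95% limits of -1.44 and -0.99, or 0.431 times the control level. edgeR's adjusted p was 7.5e-05, which placed *Gnai1* at rank 8 of all tested genes by p, and the exact two-sided permutation test gave p = 0.0079, the smallest that 5 against 5 libraries allow.

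*Gnao1* encodes Gαo, the α subunit best known as an abundant protein of nerve tissue. Its mRNA stood at 93.5, 99.8, 92.4, 71.9 and 95.6 CPM in control replicates 1 to 5, and at 125, 117, 123, 129 and 131 CPM in Stat5Adipoq replicates 1 to 5. All Stat5Adipoq libraries were above all control libraries, and control replicate 4 was the lowest of the 10. The mean rose from 90.6 ± 10.8 to 125 ± 5.37 CPM (SD, n = 5 each), a log2 fold change of 0.47 with a standard error of 0.08 and 95% limits of 0.29 and 0.64 (edgeR adjusted p = 0.0097, exact permutation p = 0.0079). *Gnao1* rested on 1278 counts per library on average and *Gnai1* on 478.

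The other Gαi genes did not pass the test. *Gnai2*, which encodes Gαi2 and had the most Gi family counts in all libraries but Stat5Adipoq replicates 3 and 5, where *Gnao1* had more, stood at 134, 135, 119, 128 and 129 CPM in control replicates 1 to 5 and at 128, 129, 121, 132 and 127 CPM in Stat5Adipoq replicates 1 to 5. *Gnai3*, which encodes Gαi3, stood at 54.4, 48.3, 55.7, 52.7 and 47.9 CPM in control replicates and at 48.9, 55.5, 46.6, 50.1 and 50.6 CPM in Stat5Adipoq replicates. The genotypes overlapped almost fully for both genes. The 95% limits of the log2 fold change ran from -0.13 to 0.09 for *Gnai2* (edgeR adjusted p = 0.91) and from -0.18 to 0.1 for *Gnai3* (edgeR adjusted p = 0.84).

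*Gnaz* encodes Gαz, the Gi family member that pertussis toxin does not modify. It had 3, 5, 5, 10 and 7 counts in control replicates 1 to 5 and 6, 10, 0, 6 and 4 counts in Stat5Adipoq replicates 1 to 5. Apart from Stat5Adipoq replicate 3, the raw counts of the Stat5Adipoq libraries lay within the range of the controls. In CPM, Stat5Adipoq replicates 2 (0.641) and 4 (0.661) lay just above the highest control, replicate 5 (0.64). The single count of 0, in Stat5Adipoq replicate 3, allows a level of up to 0.277 CPM in that library, counting error only. The log2 fold change of -0.21 had 95% limits of -1.34 and 0.93 (edgeR adjusted p = 0.91), so that a difference was not detectable at this depth. Without Stat5Adipoq replicate 3, the library with no *Gnaz* count, the log2 fold change was 0.09.

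Whether the summed Gi mRNA differed between the genotypes depended on the scale, since *Gnao1* has 11.053 kb of annotated exon and *Gnai1* 3.135 kb. In CPM not divided by length, the sum of the 5 genes was 337, 337, 332, 308 and 324 CPM in control replicates 1 to 5 and 332, 326, 315, 331 and 331 CPM in Stat5Adipoq replicates 1 to 5. The sums overlapped, with means of 327 ± 11.8 and 327 ± 7.34 CPM (SD, n = 5 each). Per kilobase of exon the sum was 73.8 to 78.0 CPM per kb in controls and 65.0 to 69.7 CPM per kb in Stat5Adipoq mice, without overlap, with means of 76.0 ± 1.88 and 68.2 ± 1.89 CPM per kb. Per kilobase of longest transcript the means were 108 ± 2.85 and 103 ± 2.56 CPM per kb, and the libraries overlapped. In CPM summed over *Gnai1*, *Gnai2* and *Gnai3* alone, the control libraries held 228 to 243 CPM and the Stat5Adipoq libraries 191 to 208 CPM, without overlap.

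As a share of the Gi family counts within each library, a measure that needs no scaling between libraries, *Gnai1* made up 16.2%, 15.8%, 19.2%, 18.0% and 15.6% in control replicates 1 to 5 and 8.93%, 7.43%, 7.6%, 5.85% and 6.64% in Stat5Adipoq replicates 1 to 5. *Gnao1* made up 27.8%, 29.7%, 27.9%, 23.3% and 29.5% in control replicates and 37.7%, 35.9%, 39.2%, 39.0% and 39.5% in Stat5Adipoq replicates. For both genes the shares of the genotypes did not overlap. The mean share of *Gnai1* fell from 17.0 ± 1.56% to 7.29 ± 1.15%, and that of *Gnao1* rose from 27.6 ± 2.56% to 38.3 ± 1.48% (SD, n = 5 each, exact two-sided permutation p = 0.0079 for each; 7 shares were tested in the 3 families, and those of 1 family are not independent of each other). *Gnai2* held 39.4 ± 2.04% of the counts in controls and 38.9 ± 0.654% in Stat5Adipoq mice (exact permutation p = 0.65), and *Gnai3* held 15.8 ± 1.22% and 15.4 ± 0.929% (exact permutation p = 0.52). Without control replicate 3, where *Gnai2* had its lowest share at 36.0%, the difference in the *Gnai2* share was -1.36 percentage points (exact permutation p = 0.016). Only 1 of the 10 comparisons of this share with 1 library left out was below 0.05, and their exact permutation p ranged from 0.016 to 0.97. *Gnaz* held 0.153 ± 0.0442% and 0.129 ± 0.0833% (exact permutation p = 0.63), and its 0 counts in Stat5Adipoq replicate 3, out of 3407 Gi family counts, allow a share of up to 0.0881%.

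*Gnao1* went from 1.65 ± 0.262 counts for each *Gnai1* count in controls (range 1.3 to 1.89) to 5.36 ± 0.957 in Stat5Adipoq mice (range 4.22 to 6.66). Per kilobase of exon this ratio was 0.467 ± 0.0744 in controls and 1.52 ± 0.271 in Stat5Adipoq mice, so on that scale *Gnai1* was the more abundant of the pair in every control library and *Gnao1* in every Stat5Adipoq library. This order depended on the length used in controls: per kilobase of longest transcript, *Gnao1* had the larger share in control replicates 2 (16.3% against 15.3%) and 5 (16.2% against 15.1%). Shares per kilobase of exon gave *Gnai2* 44.9 ± 2.37% in controls and 49.4 ± 0.98% in Stat5Adipoq mice (exact permutation p = 0.0079), although the *Gnai2* level did not differ beyond its spread. Per kilobase of longest transcript the *Gnai2* shares were 53.8 ± 2.22% and 55.6 ± 0.742%, with overlapping libraries (exact permutation p = 0.016). Per kilobase of exon *Gnai1* had 23.3 ± 1.81% and 11.2 ± 1.69%, *Gnai3* 20.9 ± 1.2% and 22.6 ± 1.12%, and *Gnao1* 10.8 ± 1.22% and 16.6 ± 0.882%.

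**Figure D1:**
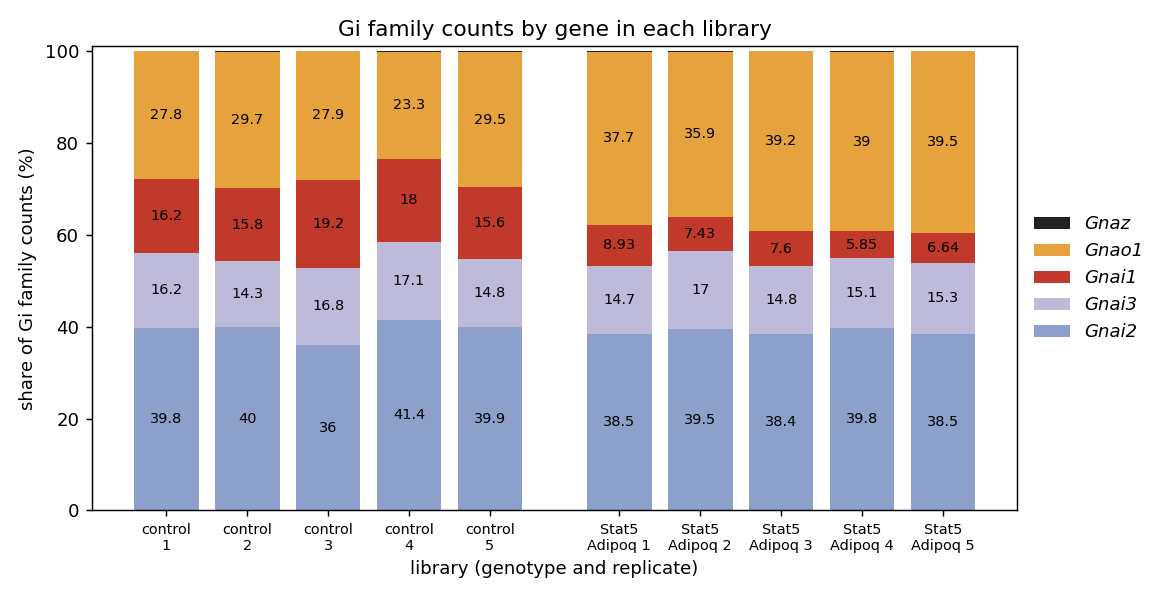
Stacked bars give the share (%) of Gi family counts held by each gene in each of the 10 libraries, with the values printed for *Gnai2*, *Gnai3*, *Gnai1* and *Gnao1*; *Gnaz* is the thin line at the top. *Gnai1* takes 15.6% to 19.2% in controls and 5.85% to 8.93% in Stat5Adipoq libraries, while *Gnao1* takes 23.3% to 29.7% and 35.9% to 39.5%.

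In the Gs family, *Gnas* encodes Gαs, the activator of adenylyl cyclase, and lies in an imprinted locus that also makes other proteins and non-coding RNAs from alternative start sites. *Gnas* stood at 4528, 4182, 4675, 4062 and 3774 CPM in control replicates 1 to 5 and at 4678, 4896, 5709, 5688 and 5429.6 CPM in Stat5Adipoq replicates 1 to 5. The groups did not overlap, but the lowest Stat5Adipoq library, replicate 1, lay next to the highest control library, replicate 3. The means were 4244 ± 362 and 5280 ± 469.9 CPM (SD, n = 5 each), with a log2 fold change of 0.32, a standard error of 0.08 and 95% limits of 0.15 and 0.48. This did not pass the threshold in edgeR (adjusted p = 0.053), while the exact permutation test of *Gnas* alone gave p = 0.0079. With 1 library left out it passed in 2 of 10 fits. The edgeR adjusted p was 0.028 without control replicate 3 and 0.032 without Stat5Adipoq replicate 1. DESeq2 gave an adjusted p of 0.005, and over all alternatives the adjusted p ranged from 0.005 to 0.14. *Gnas* alone took 0.427 ± 0.0313% of all counts on genes in controls and 0.524 ± 0.0431% in Stat5Adipoq mice.

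*Gnal* encodes Gαolf, the Gs family member first known from olfactory neurons, which also stimulates adenylyl cyclase. *Gnal* stood at 3.26, 5.63, 4.69, 4.65 and 7.03 CPM in control replicates 1 to 5 and at 5.62, 5.45, 5.91, 6.72 and 6.31 CPM in Stat5Adipoq replicates 1 to 5. The Stat5Adipoq libraries all lay within the range of the controls, which were wider apart (edgeR log2 fold change 0.24, 95% limits -0.14 and 0.63, adjusted p = 0.57; log2 fold change 0.12 without control replicate 1 and 0.39 without control replicate 5). *Gnas* made up nearly all Gs family counts in every library, and the share of *Gnal* was 0.121 ± 0.0427% in controls and 0.114 ± 0.00663% in Stat5Adipoq mice (SD, n = 5 each, exact permutation p = 0.74). The *Gnas* counts were 13.0 ± 0.947 times the summed Gi family counts in controls and 16.2 ± 1.63 times in Stat5Adipoq mice. These ratios ranged from 11.7 to 14.1 in controls and from 14.1 to 18.1 in Stat5Adipoq mice and overlapped at the edge.

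The Gq family genes *Gnaq* and *Gna11* encode the activators of phospholipase Cβ, the enzyme that releases inositol trisphosphate and diacylglycerol. *Gnaq* stood at 69.9, 69.0, 73.1, 70.5 and 69.7 CPM in control replicates 1 to 5 and at 65.6, 73.3, 72.9, 72.7 and 77.2 CPM in Stat5Adipoq replicates 1 to 5. *Gna11* stood at 133, 140.4, 123, 125 and 127 CPM in control replicates and at 129, 122, 119.8, 118 and 120.4 CPM in Stat5Adipoq replicates. *Gnaq* values were mixed between the genotypes, whereas for *Gna11* only Stat5Adipoq replicate 1 reached above the lowest control. The 95% limits of the log2 fold change were -0.08 and 0.15 for *Gnaq* (edgeR adjusted p = 0.8) and -0.21 and 0.02 for *Gna11* (edgeR adjusted p = 0.47). *Gna11* held 64.8 ± 1.67% of the Gq family counts in controls and 62.7 ± 2.07% in Stat5Adipoq mice, a difference of -2.03 percentage points (exact permutation p = 0.13). Without Stat5Adipoq replicate 1, whose share was 66.3%, the difference was -2.91 percentage points (exact permutation p = 0.016). Only 1 of the 10 comparisons with 1 library left out was below 0.05, and their exact permutation p ranged from 0.016 to 0.25.

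*Gna12* encodes Gα12, which links receptors to the cytoskeleton. It stood at 70.6, 65.4, 71.6, 65.9 and 67.7 CPM in control replicates 1 to 5 and at 75.2, 81.8, 77.6, 81.7 and 87.6 CPM in Stat5Adipoq replicates 1 to 5. All Stat5Adipoq libraries were above all controls, by a small margin at Stat5Adipoq replicate 1. The mean rose from 68.2 ± 2.75 to 80.8 ± 4.75 CPM (SD, n = 5 each), a log2 fold change of 0.24 with a standard error of 0.06 and 95% limits of 0.12 and 0.36 (edgeR adjusted p = 0.036, exact permutation p = 0.0079). The call was near the threshold: edgeR's adjusted p was 0.064, 0.09, 0.088 and 0.065 without control replicate 1, 2, 4 or 5, and 0.075, 0.065, 0.087 and 0.098 without Stat5Adipoq replicate 2, 3, 4 or 5. *Gna13*, which encodes the other G12 family subunit and is not among the 10 members, averaged 114 ± 11.4 CPM in controls and 121 ± 10.6 CPM in Stat5Adipoq mice, with overlapping libraries (edgeR log2 fold change 0.09, adjusted p = 0.66).

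**Figure D2:**
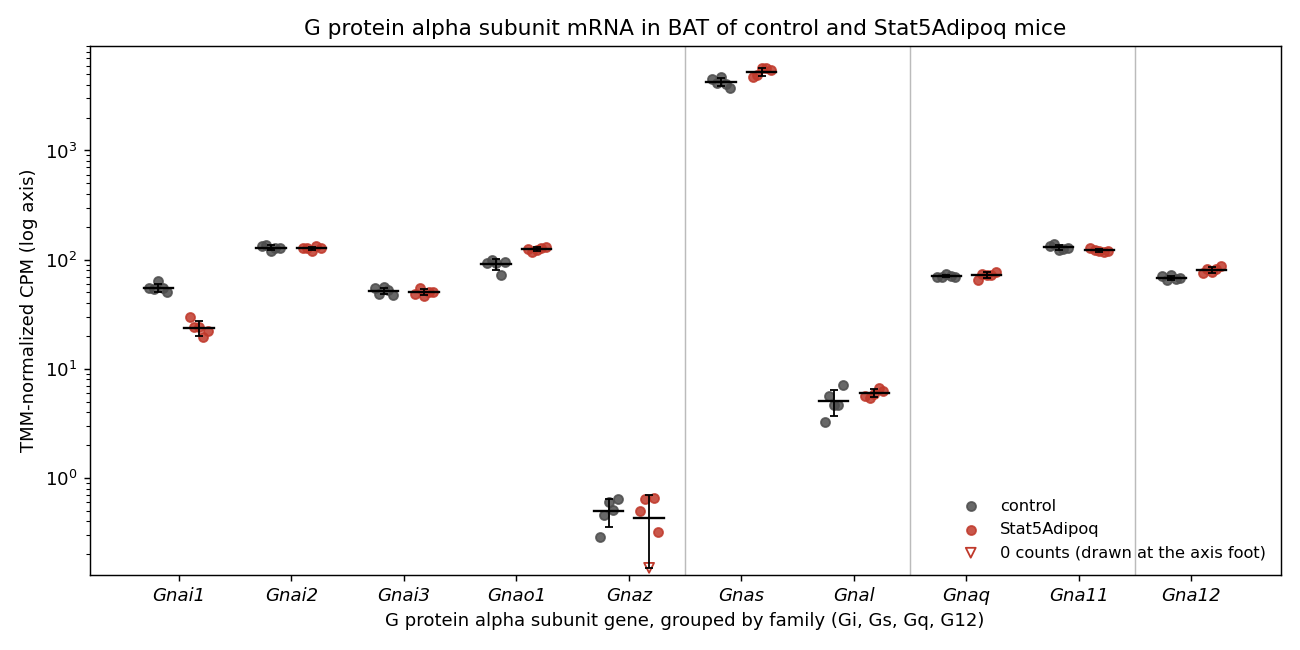
Points give the CPM (TMM-normalized, log axis) of each α subunit gene in each library, grey for control and red for Stat5Adipoq; the black line is the mean and the bar 1 SD over 5 libraries, and the open triangle is the library with 0 *Gnaz* counts. The genotypes are apart for *Gnai1*, *Gnao1* and *Gna12*, and just apart for *Gnas*, where the control libraries reach 4675 CPM and the Stat5Adipoq libraries begin at 4678 CPM.

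The members are spread over the genome (GRCm38 coordinates). *Gnai1* lies on the minus strand at chr5:18265135-18360413 and *Gna12* on the minus strand of the same chromosome at chr5:140759944-140830431. *Gnao1* lies on the plus strand at chr8:93810153-93969388, *Gnas* on the plus strand at chr2:174284320-174346744 and *Gnai2* on the minus strand at chr9:107614125-107635391. *Gnai3* is at chr3:108107275-108146152, *Gnaq* at chr19:16132684-16388520, *Gna11* at chr10:81528724-81545162 and *Gnaz* at chr10:74967177-75016907. No stretch of 50 bases, the read length, from the longest transcript of any of the 10 genes occurred in a transcript of another of them. Reads from these transcripts of the Gαi genes are thus separable by sequence, and exons outside the longest transcripts were not searched. Of the stretches of *Gnal* 0.7% and of those of *Gnaq* 0.3% also occurred in genes outside the list. Antisense genes overlap 22.0% of *Gnas* exon sequence (*Gm20721* and *Nespas*), 13.3% of *Gna12* (*Amz1*), 7.6% of *Gnal* (*Mppe1*) and 2.6% of *Gnao1* (*4930488L21Rik*). Whether counting used the strand was not stated, so reads of these pairs cannot be told apart there, and the alternative products of *Gnas* are summed in its count. *Nespas* itself had 1 count in Stat5Adipoq replicate 2 and 0 in the other 9 libraries.

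The windows from 250 bases before to 50 bases after the annotated start (RefSeq, GRCm38.p6) were searched for TTCNNNGAA, the core that STAT5 dimers recognise, which reads the same on both strands. Of all 32851 such windows, 8.3% hold it, or those of 9.55% of 27025 genes. The windows of *Gnai1*, *Gnai3*, *Gnao1*, *Gna11*, *Gna12* and the 4 starts of *Gnas* hold 0 matches, and that of *Gnaq* holds 1, past the start site; windows of *Gnai2*, *Gnaz* and *Gnal* were not used here. A match or its absence describes these letters in this window only. The upstream 250 bases are given 5′ to 3′ on the gene's strand for *Gnai1* (chr5:18360414-18360663, minus strand) and *Gna12* (chr5:140830432-140830681, minus strand), which moved in opposite directions, and for *Gnai3* (chr3:108146153-108146402, minus strand), the relative of *Gnai1* that did not pass the test; no base is in capitals because none of them holds the motif. Of the whole windows, G and C make up 80.0% for *Gnai1*, 65.7% for *Gna12* and 59.3% for *Gnai3*, with 53, 30 and 21 CG dinucleotides.
Gnai1: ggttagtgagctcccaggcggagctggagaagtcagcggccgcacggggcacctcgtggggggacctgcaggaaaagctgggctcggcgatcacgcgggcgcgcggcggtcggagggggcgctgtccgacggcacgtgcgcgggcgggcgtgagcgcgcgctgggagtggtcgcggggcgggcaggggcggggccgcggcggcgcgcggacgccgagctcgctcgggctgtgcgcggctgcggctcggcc
Gna12: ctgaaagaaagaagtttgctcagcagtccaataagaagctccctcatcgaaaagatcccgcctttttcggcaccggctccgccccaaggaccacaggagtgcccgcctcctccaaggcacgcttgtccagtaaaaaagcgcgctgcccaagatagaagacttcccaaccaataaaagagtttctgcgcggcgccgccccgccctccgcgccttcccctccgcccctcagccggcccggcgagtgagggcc
Gnai3: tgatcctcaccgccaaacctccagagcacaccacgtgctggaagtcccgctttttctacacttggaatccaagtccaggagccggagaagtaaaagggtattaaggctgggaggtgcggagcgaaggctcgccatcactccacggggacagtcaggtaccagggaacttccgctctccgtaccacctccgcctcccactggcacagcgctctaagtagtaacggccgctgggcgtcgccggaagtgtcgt

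Of the genes around the α subunits, 121 were listed and 89 tested, of which edgeR called 3 as lower and 1 as higher in Stat5Adipoq mice. This is 4.49%, with a median log2 fold change of -0.06, against 2.71% and -0.0028 over all tested genes. The counts per list stand against the same 2.71% for edgeR, and against 4.86% for DESeq2. Among adenylyl cyclases, the enzymes on which Gαs and Gαi act, 1 of 8 tested genes was called. *Adcy5*, a cyclase inhibited by Gαi, stood at 13.9, 11.8, 10.9, 14.2 and 10.6 CPM in control replicates 1 to 5 and at 7.96, 2.95, 3.79, 6.06 and 4.39 CPM in Stat5Adipoq replicates 1 to 5, without overlap (edgeR log2 fold change -1.31, standard error 0.22, adjusted p = 0.0093). The cyclases with the most counts were *Adcy6*, at 407 ± 18.2 and 364 ± 20.2 CPM (edgeR log2 fold change -0.16, adjusted p = 0.17), and *Adcy3*, at 299 ± 139 and 206 ± 46.0 CPM (edgeR log2 fold change -0.54, adjusted p = 0.37). *Adcy3* ranged widely among controls and was highest in control replicate 3, at 522 CPM.

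Of 12 tested receptors that couple to Gs, 1 was called. The secretin receptor gene *Sctr* ranged from 6.98 to 15.2 CPM in controls, with a mean of 12.1 ± 3.17 CPM, and from 4.63 to 5.45 CPM in Stat5Adipoq mice, with a mean of 5.06 ± 0.317 CPM (edgeR log2 fold change -1.26, standard error 0.17, adjusted p = 0.0028). The controls lay above all Stat5Adipoq libraries, with control replicate 3 nearest to them. The β3-adrenergic receptor gene *Adrb3* averaged 386 ± 58.5 CPM in controls and 420.3 ± 64.6 CPM in Stat5Adipoq mice (edgeR log2 fold change 0.12, adjusted p = 0.71), and *Adrb1* 32.0 ± 3.21 and 27.8 ± 7.73 CPM (edgeR log2 fold change -0.2, adjusted p = 0.67). Of 9 tested Gi-coupled receptors, *Cnr1*, the cannabinoid receptor gene, was called as lower on a mean of 12.3 counts per library, at 1.44 ± 0.322 CPM in controls and 0.538 ± 0.152 CPM in Stat5Adipoq mice (edgeR log2 fold change -1.46, adjusted p = 0.015). The adenosine receptor gene *Adora1*, with the most counts in this list, averaged 181 ± 33.8 and 214 ± 14.0 CPM (edgeR log2 fold change 0.24, adjusted p = 0.32), and the sphingosine-1-phosphate receptor gene *S1pr1* 82.5 ± 14.7 and 88.2 ± 18.8 CPM (edgeR log2 fold change 0.09, adjusted p = 0.84). Of 10 tested Gq-coupled receptors, the thrombin receptor gene *F2r* was called as higher, with 12.7, 11.4, 11.4, 10.2 and 12.7 CPM in control replicates 1 to 5 and 22.7, 22.9, 22.1, 20.8 and 18.3 CPM in Stat5Adipoq replicates 1 to 5 (edgeR log2 fold change 0.87, standard error 0.09, adjusted p = 0.00051). *Adra1a*, an α1-adrenergic receptor gene, averaged 137 ± 16.5 and 139 ± 11.7 CPM, and *Ffar4*, a fatty acid receptor gene, 39.4 ± 24.3 and 37.8 ± 17.1 CPM (edgeR adjusted p = 0.96 and 0.97). DESeq2 called 2 of the 12 Gs-coupled, 3 of the 9 Gi-coupled and 2 of the 10 Gq-coupled receptor genes. Beyond those of edgeR it called *Tshr*, *Hcar1* and *Hcar2*, lower in Stat5Adipoq mice, and *P2ry1*, higher. These are receptor genes for thyrotropin, lactate, nicotinic acid and ADP. In control and Stat5Adipoq mice *Hcar1* averaged 64.9 ± 27.0 and 24.6 ± 11.5 CPM, and *Hcar2* 10.9 ± 4.95 and 3.96 ± 2.3 CPM. *Tshr* averaged 29.6 ± 3.84 and 20.9 ± 4.82 CPM, and *P2ry1* 11.3 ± 2.02 and 15.8 ± 2.29 CPM. The libraries of the genotypes overlapped for each, and limma-voom called none beyond those of edgeR.

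The partners of the α subunits showed 0 calls by edgeR and by limma-voom in 7 lists, and DESeq2 called 1 gene in them, *Plcb4*, which encodes a phospholipase Cβ (62.2 ± 7.03 CPM in controls and 75.5 ± 5.12 CPM in Stat5Adipoq mice). Of the β subunit genes 4 were tested and 0 had an unadjusted p below 0.05, with *Gnb1* at 280.2 ± 13.7 and 285 ± 13.1 CPM and *Gnb2* at 213 ± 12.3 and 195 ± 11.7 CPM in control and Stat5Adipoq mice. Of 8 tested γ subunit genes, 1 had an unadjusted p below 0.05, the second most abundant by counts, *Gngt2*, at 22.6 ± 1.02 and 25.6 ± 2.43 CPM, and *Gng12* averaged 116 ± 9.91 and 117 ± 4.44 CPM. Of 12 tested RGS genes, whose products speed up the GTPase of the α subunit, 2 had an unadjusted p below 0.05, and the most abundant were *Rgs5* at 416 ± 35.2 and 462 ± 37.3 CPM and *Rgs2* at 183 ± 71.8 and 266 ± 31.6 CPM. Chaperones and other regulators of the α subunit had 9 tested genes and 1 at an unadjusted p below 0.05, *Ric8b*, the chaperone of Gαs and Gαolf, at 76.8 ± 5.87 and 66.7 ± 5.85 CPM (edgeR adjusted p = 0.2), beside *Nucb1* at 163 ± 9.53 and 163 ± 18.4 CPM. Receptor kinases and arrestins had 7 tested genes and 1 below an unadjusted p of 0.05, *Adrbk1*, at 87.3 ± 3.04 and 78.4 ± 5.57 CPM (edgeR adjusted p = 0.21). The most abundant of them were *Adrbk2* at 317 ± 26.8 and 332 ± 36.5 CPM and *Arrb1* at 116 ± 15.1 and 123 ± 11.9 CPM. Effectors of Gq and G12 had 7 tested genes and 1 below an unadjusted p of 0.05, *Plcb4*. The most abundant of these effectors were *Arhgef12* at 364 ± 42.6 and 374 ± 28.3 CPM and *Arhgef1* at 117 ± 8.35 and 115 ± 4.98 CPM. Of the other α subunit genes 3 were tested and 0 called or below an unadjusted p of 0.05, and besides *Gna13* these were *Gnat3* and *Gna15*, on a mean of 5.0 and 5.2 counts.

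Markers of other cell types were set beside the members, since Gαo is best known from nerve tissue and control replicate 4 had the lowest *Gnao1* value. All 7 Schwann cell markers were tested, none was at 0 over the libraries, 6 had an unadjusted p below 0.05 and 0 were called by edgeR, DESeq2 or limma-voom. Their summed level was 69.6, 239, 130.2, 393 and 125 CPM in control replicates 1 to 5 and 152, 85.8, 73.9, 85.3 and 87.2 CPM in Stat5Adipoq replicates 1 to 5, with *Mbp* the most abundant and control replicate 4 the highest. *Gnao1* was lowest in that library. Control replicate 2, with the second highest sum of these markers, had the highest *Gnao1* of the controls. Without control replicate 4 the *Gnao1* log2 fold change was 0.39 (edgeR adjusted p = 0.0058, against a range of 1.7e-05 to 0.034 over all alternatives). Of 6 neuron markers 0 passed the count filter, with 31 counts over all genes and libraries and *Th* at 0. The part of Schwann cell RNA in the *Gnao1* values was not tested.

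All 9 skeletal muscle markers had an unadjusted p below 0.05, 0 were called by edgeR or limma-voom and 4 by DESeq2. Their summed level was 59.4, 16.9, 3925, 5.16 and 326 CPM in control replicates 1 to 5 and 45.5, 2.44, 6.37, 19.9 and 17.1 CPM in Stat5Adipoq replicates 1 to 5, with *Myh4* the most abundant. Control replicate 3, the highest, also had the highest summed liver markers, 70.0 CPM against at most 3.91 CPM in any other library. Among the controls it had the highest *Gnai1*, *Gnai3*, *Gnas*, *Gnaq* and *Gna12* and the lowest *Gnai2* and *Gna11*. Without this library *Gnai1*, *Gnao1* and *Gna12* were still called by edgeR, and *Gnas* passed the threshold (edgeR adjusted p = 0.028). Of the 5 tested liver markers 2 had an unadjusted p below 0.05 and 0 were called by any of these tools, with *Alb* the most abundant. None of the tested markers of macrophages (7, led by *Lyz2*), T and B cells (5, led by *Cd4*), endothelium (6, led by *Kdr*), fibroblasts (5, led by *Col1a2*), mural cells (7, led by *Pdgfrb*) and red cells (1, *Alas2*) was called by edgeR, DESeq2 or limma-voom, and 0, 1, 2, 0, 0 and 1 of them had an unadjusted p below 0.05. Summed endothelial markers were 745 ± 38.2 CPM in controls and 806 ± 63.9 CPM in Stat5Adipoq mice, and summed macrophage markers 144 ± 17.1 and 136 ± 14.9 CPM.

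Genes that followed a member most closely were sought among 9842 genes, by the Pearson correlation over the 10 libraries of log2 CPM after the genotype mean was subtracted. For *Gnai1* these were *Ppp1r1a*, which encodes an inhibitor of protein phosphatase 1 that protein kinase A activates (r = 0.95), *Trmt5*, a tRNA methyltransferase gene (r = 0.93), and *Rarres2*, which encodes chemerin (r = 0.92). Without the 2 libraries farthest from the median of *Gnai1* the values of r were 0.93, 0.91 and 0.71. For *Gnas* they were *Atxn1l* (r = 0.95), the ribosomal protein gene *Rpl15* (r = 0.95) and the kinase gene *Dapk3* (r = 0.94), and without the 2 libraries farthest from the median of *Gnas* they were 0.89, 0.98 and 0.88. These are the highest of many correlations and are given as a description.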

How the data were processed

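RNA-Seq reads of 50 bases were aligned by the authors to GRCm38 with STAR 2.5.0b and counted over exons with featureCounts 1.5.0-p1, and the deposited values are raw counts per gene. The authors' table of their own comparison, which holds DESeq2 fold changes and p-values, was used only for gene symbols and identifiers. Members were matched by symbol and joined by Entrez identifier. Members and gene lists were chosen with earlier results of these data known. Named pathway genes are those called by edgeR and the most abundant pair of each list. *Gna15*, *Adrbk1* and the genes called by DESeq2 alone were added after their values were seen.

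Genes with size factor normalized counts summing to more than 45 over the libraries were compared with edgeR 4.0.16 (quasi-likelihood F test, TMM, Benjamini-Hochberg adjustment over all tested genes, threshold 0.05), in R 4.3.3. The code was tested on simulated data. Single genes and shares were compared by exact two-sided permutation tests over libraries (scipy 1.17.1; log2 CPM with a prior count of 2 for genes). Alternatives were DESeq2 1.42.0, limma-voom 3.58.1, other scalings and filters, a replicate block, and leaving out each library. Depth was 8488129 to 19514904 counts per library, so that levels of *Gnaz*, with 5.6 counts on average, are imprecise. Exon lengths are from GENCODE M21 and promoters from RefSeq, both for GRCm38.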

Additional observations from a re-analysis of the deposited data

Results flagged for a closer look

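A Dixon test for a single library far from the other 4 of its genotype was applied to 36 groups of values, of which 4 held such a library; chance flags about 1 in 20 groups, or 1.8 here. *Gnao1* in control replicate 4 was 71.9 CPM, against 92.4 to 99.8 CPM in the other controls. *Gnai3* made up 17.0% of the Gi family counts in Stat5Adipoq replicate 2, against 14.7% to 15.3% in the other Stat5Adipoq libraries. *Gna11* made up 66.3% of the Gq family counts in Stat5Adipoq replicate 1, against 60.9% to 62.5% in the others of its genotype. Control replicate 4 was also the deepest library, with 19514904 counts on genes against 8488129 to 10936218 in the other controls; whether its depth bears on its *Gnao1* level was not tested.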

How the results depend on the processing

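*Gnai1* and *Gnao1* kept their direction and their call in all 17 alternatives run. Over all tested genes DESeq2 called 660, and leaving out 1 library gave 185 to 443 calls. *Gnas* passed the threshold in 3 of the 7 alternatives with all libraries. Its log2 fold change there was 0.31 by DESeq2, 0.31 by limma-voom and 0.29 on library size alone. With 1 library left out *Gnas* passed in 2 of 10 fits, and its log2 fold change ranged from 0.28 to 0.35 over these fits. *Gna12* ranged from 0.21 to 0.27 with 1 library left out, and *Gnaz* from -0.37 to 0.09; limma-voom gave -0.6 for *Gnaz*. In counts not divided by length, the shares of *Gnai2* and *Gnai3* in the Gi family differed by -0.502 and -0.439 percentage points. Per kilobase of exon their direction turned, to 4.52 (exact permutation p = 0.0079) and 1.76 (exact permutation p = 0.04). Among *Gnai1*, *Gnai2* and *Gnai3* alone it turned as well, to 8.58 and 3.07 (exact permutation p = 0.0079 for each). With 1 library left out, the share differences ranged from -1.36 to -0.000578 for *Gnai2*, from -0.841 to -0.124 for *Gnai3*, from -0.0414 to 0.00846 for *Gnaz*, from -0.02 to 0.00852 for *Gnal* and from -2.91 to -1.45 for *Gna11* (percentage points). *Gnaz* fell below the count filter under filterByExpr and without Stat5Adipoq replicate 2, and DESeq2 gave it no adjusted p, so that no value is given there. The cause of these shifts was not tested.

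With the replicate number as a block, edgeR called 273 genes, *Gna12* had a log2 fold change of 0.24 (adjusted p = 0.11), *Cnr1* had an adjusted p of 0.052 (0.0055 to 0.052 over its alternatives), and the share differences of *Gnai1* (-9.66 points) and *Gnao1* (10.6 points) reached the smallest exact p that 5 pairs allow, 0.062. The labels do not say whether the numbers pair the samples. Same-numbered libraries correlated at -0.24, 0.166, -0.165, 0.127 and -0.202, and 2 of 10 correlated best with their own number. A pairing was thus not detected, which does not show that there was none.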
